A study of Mus musculus with 28 samples.

Results

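The 10 genes described here encode the enzymes of serine synthesis and of the folate one-carbon pathway in mouse colon organoids, and the rule that defines the group lists them by name, with no threshold on a measured value. They are *Phgdh*, *Psat1*, *Psph*, *Shmt1*, *Shmt2*, *Mthfd1*, *Mthfd1l*, *Mthfd2*, *Gldc* and *Cbs*. All 10 are among the 13519 genes counted. The measurement is the number of RNA-seq reads counted per gene in 28 organoid samples, given here as CPM (the per-million count, with each library size scaled by the TMM method). Values of a group are listed by donor, with duplicate 1 of a donor before its duplicate 2. Changes and differences are on the log2 scale, and a gene was called when its Benjamini-Hochberg adjusted p over all 13519 genes was below 0.01.

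Serine synthesis starts from a glycolytic intermediate. *Phgdh* oxidises 3-phosphoglycerate, *Psat1* transfers an amino group from glutamate, and *Psph* removes the phosphate to release serine. *Shmt1* in the cytosol and *Shmt2* in mitochondria then split serine into glycine and a one-carbon unit carried on tetrahydrofolate. In mitochondria *Mthfd2* oxidises that unit and *Mthfd1l* releases it as formate, and in the cytosol *Mthfd1* takes formate up again, so that it can be built into purines and thymidylate. *Gldc* is the decarboxylase of the glycine cleavage system, which also yields a one-carbon unit, and *Cbs* condenses serine with homocysteine in the first step of transsulfuration. Proliferating cells, including those of the intestinal epithelium and its tumors, draw on this pathway for nucleotides.

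The organoids came from C57BL/6N mice and all carried VillinCreERT2, a Cre recombinase that is expressed from the promoter of the epithelial gene villin and is activated by 4-hydroxytamoxifen (4-HT), together with APCflox/flox, which Cre inactivates. AC organoids carried only these, PAC organoids also carried Trp53LSL-R172H/+, BAC organoids BraffloxV600E/+, and BPAC organoids both. Cre makes the *Trp53* allele express mutant p53 and turns the *Braf* allele, which codes for the normal protein until then, into V600E. The 7 donor mice, 1 for AC and 2 for each other genotype, gave 2 cultures each, called duplicates 1 and 2, from distinct passages. The study's methods give every genotype the same number of donors, and another AC donor was not analysed here. The title of 1 BAC sample with 4-HT (donor Col291) gives no duplicate number, and it was taken as duplicate 1 because the other such sample of that donor is numbered 2. Each of the 14 cultures received 4-HT (3.5 µM, 24 hours, RNA 3 days later) or ethanol (EtOH), so an EtOH sample carries the same alleles before recombination and every 4-HT sample combines *Apc* loss with its other alleles. Because 2 cultures come from 1 mouse, p values measure the spread between these samples and, for AC, nothing of the spread between animals. The age and sex of the donors are not given in the sources used here.

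Between 20577276 and 40068718 reads were counted per sample. With 4-HT, duplicate 1 held 37438687 to 40068718 reads with the *Braf* allele and 26594188 to 30306835 without it. *Trp53* stood at 57.9 and 54.2 CPM in EtOH-treated PAC and BPAC, against 112 and 109.8 CPM in AC and BAC, as the labels have it for 1 silent copy, while gene totals of *Apc* and *Braf* do not test the recombined exons. All 10 colon epithelium markers (*Epcam*, *Cdh1* and *Vil1* among them) were counted, and so were 2 of the 4 small intestine markers (*Alpi* and *Defa24*). The summed level of these 2 was 314.5 to 552.8 CPM with EtOH and 50.2 to 152.6 CPM with 4-HT. None of the 5 fibroblast markers was among the genes counted, 1 of the 4 immune markers reached at most 2.04 CPM and 1 of the 3 endothelial markers at most 2.71 CPM. The 4-HT samples of duplicate 1 of the 2 PAC donors were the closest pair of the series (r = 0.99695), and both held *Xist* (25.2 and 22.0 CPM) and Y-linked counts (55.0 and 53.5 CPM), whereas in every other sample the lower of these levels was at most 0.2905 CPM. These samples go against their labels as separate donors, and PAC values are also given without the PAC cultures of duplicate 1.

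The sequence before the start site is shown for 4 of the genes: *Psat1* and *Mthfd2*, whose 4-HT change differed most by *Braf* allele, and *Shmt2* and *Cbs*, which held the only matches to the motifs searched. RefSeq promoters on GRCm38.p6 matched all 10 genes, with 2 start sites for *Psat1*. The 250 bases before each start were searched on both strands for TGATGNAA (the ATF4 element), CACGTG (the *Myc* E-box), CCGGAAG (an ETS site) and CTTTGAT (a TCF/LEF site), and of all 32851 promoters of this length 3.45%, 6.02%, 6.91% and 3.21% held these motifs. Of the 12921 promoters of genes counted here these shares were 2.0%, 8.13%, 13.07% and 2.31%. Capitals mark the ETS site in *Shmt2*, chr10:127522445-127522694 (minus strand), and the E-box in *Cbs*, chr17:31637239-31637455 (minus strand), and the matches did not overlap another motif. *Psat1*, chr19:15925060-15925309 (minus strand), and *Mthfd2*, chr6:83317607-83317854 (minus strand), are in lower case throughout. The *Cbs* and *Mthfd2* stretches stop short of the RefSeq start, where an annotated exon begins, and those of *Psat1* and *Mthfd2* lie within the GENCODE span of their genes and outside any annotated exon.
Psat1: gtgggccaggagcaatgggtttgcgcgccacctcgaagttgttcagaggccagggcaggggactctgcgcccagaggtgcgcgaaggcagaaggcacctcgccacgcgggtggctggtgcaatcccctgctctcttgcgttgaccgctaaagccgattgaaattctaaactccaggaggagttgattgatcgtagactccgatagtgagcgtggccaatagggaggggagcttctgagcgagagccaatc
Mthfd2: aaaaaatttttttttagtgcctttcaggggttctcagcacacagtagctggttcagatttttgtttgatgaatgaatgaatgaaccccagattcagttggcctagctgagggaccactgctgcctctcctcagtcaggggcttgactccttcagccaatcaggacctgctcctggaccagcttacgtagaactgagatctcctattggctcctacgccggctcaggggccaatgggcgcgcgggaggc
Shmt2: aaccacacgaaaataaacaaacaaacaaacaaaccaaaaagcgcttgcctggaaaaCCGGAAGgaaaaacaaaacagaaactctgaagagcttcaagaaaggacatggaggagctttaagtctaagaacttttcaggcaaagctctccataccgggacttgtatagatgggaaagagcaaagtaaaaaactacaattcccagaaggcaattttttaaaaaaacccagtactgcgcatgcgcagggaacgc
Cbs: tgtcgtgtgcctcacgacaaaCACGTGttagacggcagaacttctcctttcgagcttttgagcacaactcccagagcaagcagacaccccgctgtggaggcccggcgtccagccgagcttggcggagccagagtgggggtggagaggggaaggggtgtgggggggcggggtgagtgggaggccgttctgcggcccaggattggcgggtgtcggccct
A match describes letters in this window, and a window without a match says nothing about the factor.

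The question of the comparisons is how these genes change when *Apc* is lost alone and when V600E *Braf* or mutant p53 is expressed with it. In BAC and BPAC organoids the same 8 of the 10 genes were higher after 4-HT, namely *Phgdh*, *Psat1*, *Psph*, *Shmt1*, *Shmt2*, *Mthfd1*, *Mthfd1l* and *Mthfd2*. Their fold changes ran from 1.59-fold for *Shmt1* to 2.65-fold for *Shmt2* in BAC and from 1.71-fold to 2.77-fold for the same genes in BPAC. Over all genes, 20.3% were called higher in BAC and 22.0% in BPAC, and 21.5% and 23.0% were called lower. In AC only *Shmt2* was called higher, where 3.00% of all genes were called higher and 4.25% lower. In PAC *Phgdh*, *Shmt2* and *Mthfd1* were called higher, where 11.2% of all genes were called higher and 12.2% lower. AC has 2 samples per treatment and the other genotypes 4, so a change of the same size passes less easily in AC. For *Mthfd1* the change was 0.58 ± 0.17 (SE) in AC, not called, and 0.42 ± 0.12 (SE) in PAC, called. With the culture as a replicate block the calls were 3 in AC (*Shmt1*, *Shmt2* and *Mthfd1l*, against 7.45% of all genes higher) and 6 in PAC (*Phgdh*, *Shmt1*, *Shmt2*, *Mthfd1*, *Mthfd1l* and *Cbs*, against 16.5%). With the duplicates of a donor summed, edgeR called only *Shmt1* in AC (1.45% of all genes higher) and *Phgdh*, *Psat1*, *Shmt1* and *Shmt2* in PAC (9.39%). AC, with 1 donor, then holds 1 sample per treatment, which is assumed to vary like the other genotypes, as it is with 1 duplicate alone or an AC culture left out. With all 28 samples as they stand no member of the group was called lower in any genotype by edgeR, limma-voom or DESeq2, and the count of lower genes at an unadjusted p under 0.05 was also 0 by each. In bulk RNA, fewer cells that express a gene and less of its RNA per cell cannot be told apart.

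The PAC calls rest on duplicate 1. Without the PAC cultures of duplicate 1 edgeR called none of the 10 genes in PAC (1 at an unadjusted p under 0.05; over all genes 22 higher and 26 lower), with changes of 0.20 for *Phgdh*, 0.33 for *Shmt2* and 0.35 for *Mthfd1*, where duplicate 1 alone gave 0.72, 0.91 and 0.50 and called 7 of the 10 higher (13.5% of all genes). In BAC and BPAC, leaving out any of the 14 cultures kept the count at 8, and with duplicate 2 alone (1430 and 1452 of all genes higher) it was 7 in each, without *Psph* in BAC (adjusted p = 0.0231) and without *Mthfd1* in BPAC (adjusted p = 0.0106). Over the 10 genes the median change was 0.56 for AC, 0.44 for PAC, 0.97 for BAC and 1.16 for BPAC, beside medians over all genes of 0.01, -0.03, -0.04 and -0.04. Scaled by library size alone, the medians over all genes were 0.23, 0.20, 0.13 and 0.18, with 1511 genes higher and 302 lower in AC (406 and 574 with TMM) and 3388 and 737 in PAC (1511 and 1655 with TMM), so changes are to be read relative to these medians. In BAC that scaling gave 3881 higher and 2066 lower (2751 and 2909 with TMM), and in BPAC 4331 and 2038 (2979 and 3110 with TMM).

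**Figure D1:**
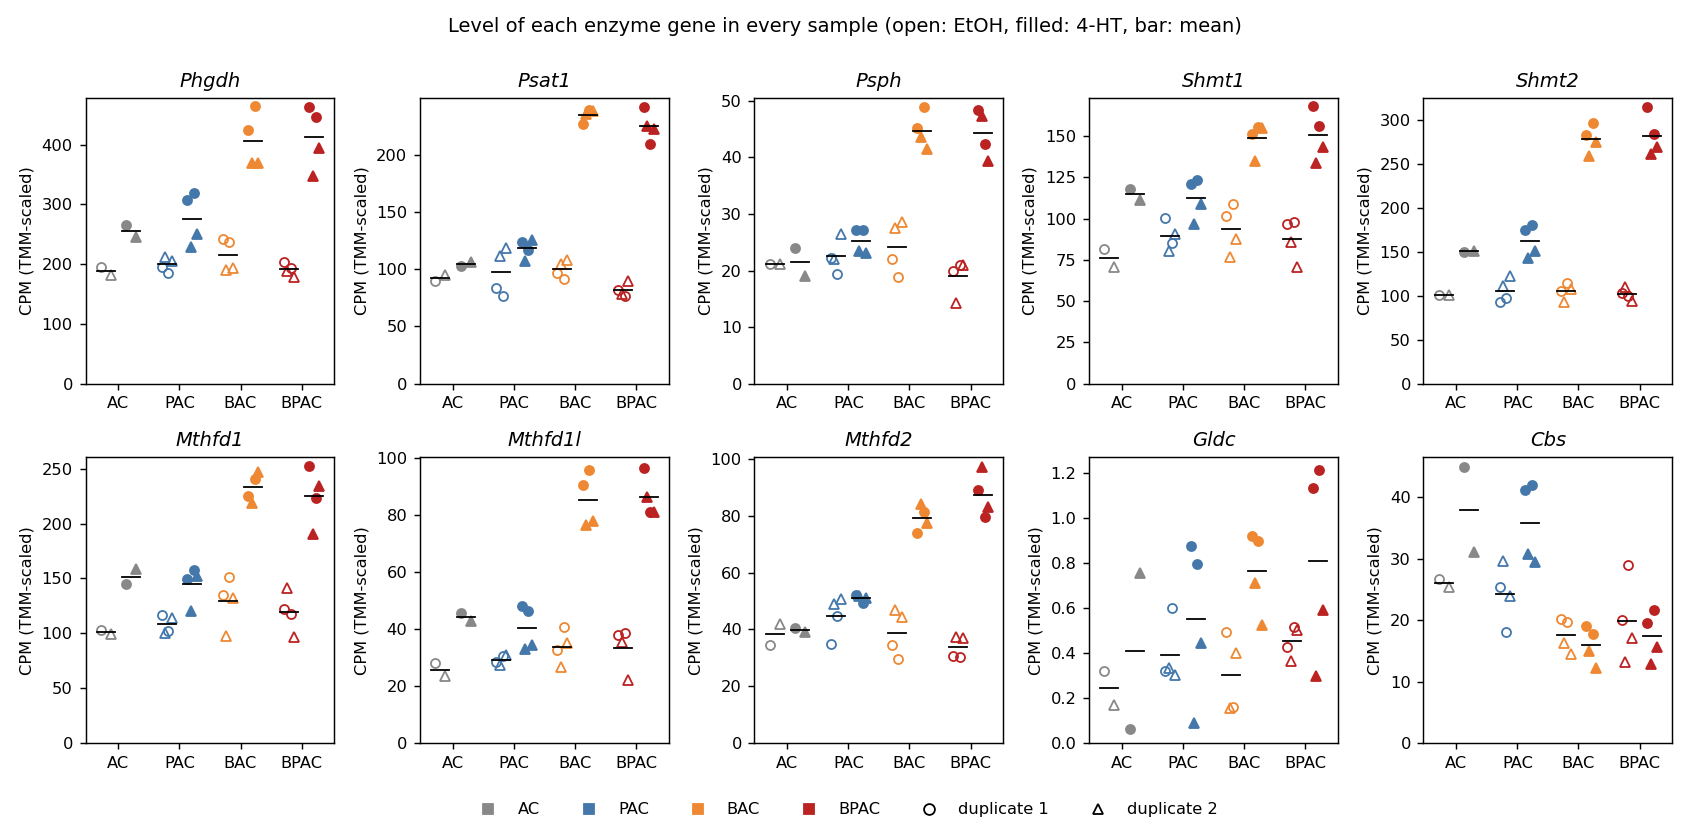
Level of each of the 10 enzyme genes (CPM, linear axes from 0) in all 28 samples by genotype, open symbols for EtOH and filled for 4-HT, circles for duplicate 1 and triangles for duplicate 2, with a bar at each group's mean. For Psat1 the filled BAC and BPAC symbols lie between 209.6 and 242 CPM, above every other sample, and for Cbs they lie below the filled AC and PAC symbols.

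Per kilobase of exon and over the 14 EtOH samples, *Phgdh* had the highest level of the 10 genes, at 80.6 ± 7.67 CPM per kb (SD, n = 14). *Shmt2* followed at 33.4, *Mthfd1* at 26.2, *Shmt1* at 22.7 and *Psat1* at 21.9 CPM per kb. *Mthfd2* stood at 11.2, *Mthfd1l* at 7.05, *Psph* at 5.04, *Cbs* at 2.85 and *Gldc* at 0.0595 CPM per kb. The ranges over samples did not overlap between *Phgdh* and *Shmt2*, between *Psat1* and *Mthfd2* and between *Cbs* and *Gldc*, and they overlapped for all other neighbors in this order. With 4-HT the place of *Psat1* in this order depended on the genotype. It stood at 24.6 and 27.8 CPM per kb in AC and PAC, below *Shmt1* at 29.5 and 29.0 CPM per kb, with ranges that overlapped in PAC. In BAC and BPAC it stood at 55.2 and 52.8 CPM per kb, above *Shmt1* at 38.4 and 38.7 and also above *Mthfd1* at 52.4 and 50.6 CPM per kb, where the ranges of *Psat1* and *Mthfd1* overlapped.

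*Phgdh*, the first enzyme of serine synthesis, lies at chr3:98313170-98339990 (minus strand) (GRCm38, GENCODE M21). With EtOH it stood at 195 and 182 CPM in AC, 196, 212, 185 and 206 CPM in PAC, 242, 191, 238 and 193 CPM in BAC and 204, 188, 194 and 179 CPM in BPAC. With 4-HT it stood at 266 and 245 CPM in AC, 307, 228, 319 and 250.3 CPM in PAC, 425, 369, 464 and 369 CPM in BAC and 463, 347, 446 and 394 CPM in BPAC. Every 4-HT value of BAC and BPAC lay above every AC and PAC value, and in PAC the pair of duplicate 1 values with 4-HT lay above the pair of duplicate 2. The change was 0.44 ± 0.16 (SE; adjusted p = 0.0551) in AC, 0.47 (adjusted p = 0.00216) in PAC, 0.91 (adjusted p = 3.11e-07) in BAC and 1.11 ± 0.11 (SE; adjusted p = 1.48e-08) in BPAC.

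*Psat1*, the aminotransferase of the second step, lies at chr19:15904678-15947337 (minus strand). With EtOH it stood at 89.5 and 95.1 CPM in AC, 83.3, 111, 76.3 and 119 CPM in PAC, 96.5, 104, 91.6 and 108 CPM in BAC and 82.0, 78.8, 77.0 and 89.3 CPM in BPAC. With 4-HT it stood at 103 and 106 CPM in AC, 124, 107, 117 and 125 CPM in PAC, 227, 235, 239 and 238 CPM in BAC and 242, 225, 209.6 and 222 CPM in BPAC. The BAC and BPAC values with 4-HT formed a narrow band well above all other samples, while the AC and PAC values with 4-HT overlapped the EtOH values of PAC. The change was 0.18 (adjusted p = 0.437) in AC and 0.28 (adjusted p = 0.0345) in PAC, against 1.23 (adjusted p = 1.41e-09) in BAC and 1.46 ± 0.10 (SE; adjusted p = 8.71e-11) in BPAC.

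*Psph*, the phosphatase that releases serine, is at chr5:129765558-129787449 (minus strand). Its mean (± SD, n = 4) was 24.2 ± 4.64 CPM in BAC with EtOH, where 4-HT gave 44.8 ± 3.12 CPM, and 19.0 ± 3.18 CPM in BPAC, where 4-HT gave 44.4 ± 4.24 CPM, changes of 0.89 (adjusted p = 5.54e-06) and 1.22 (adjusted p = 4.92e-08). In AC (n = 2) it was 21.2 ± 0.0712 CPM with EtOH against 21.5 ± 3.58 CPM with 4-HT, a change of 0.02 (adjusted p = 0.955), and in PAC (n = 4) 22.5 ± 2.90 CPM against 25.2 ± 2.26 CPM, a change of 0.17 (adjusted p = 0.346). The BAC and BPAC samples with 4-HT held 39.4 to 48.8 CPM, and no other sample held more than 28.6 CPM.

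*Shmt2*, the mitochondrial enzyme that makes glycine and a one-carbon unit from serine, is at chr10:127517123-127522444 (minus strand), and its upstream sequence is the one shown above with an ETS site. With EtOH it stood at 100.4 and 101 CPM in AC, 92.8, 111, 97.5 and 122 CPM in PAC, 106, 92.6, 114 and 108 CPM in BAC and 103, 110.5, 99.9 and 93.8 CPM in BPAC. With 4-HT it stood at 150.2 and 151 CPM in AC, 175, 143, 181 and 150.5 CPM in PAC, 283, 259, 297 and 275 CPM in BAC and 314, 261, 284 and 269.5 CPM in BPAC. The samples thus fell into 3 ranges that did not overlap: EtOH, 4-HT without the *Braf* allele, and 4-HT with it. In the edgeR fit without the replicate block *Shmt2* was the only one of the 10 genes called in all 4 genotypes. Its changes were 0.58 ± 0.13 (SE; adjusted p = 0.00409) in AC, 0.62 (adjusted p = 3.1e-05) in PAC, 1.40 (adjusted p = 1.01e-10) in BAC and 1.47 ± 0.09 (SE; adjusted p = 2.08e-11) in BPAC. With the replicate block *Shmt1* and *Mthfd1l* were also called in all 4. With 1 AC sample per treatment, the *Shmt2* change in AC was 0.58 without duplicate 1, 0.58 without duplicate 2 and 0.55 with the duplicates summed. The spread of AC is then taken from the other genotypes, so these fits cannot tell whether the AC call holds with 1 culture. The size of the change was thus nearly the same in each.

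*Shmt1*, its cytosolic counterpart, is at chr11:60788104-60811718 (minus strand). With 4-HT it held 133.9 to 168.3 CPM in BAC and BPAC and 96.9 to 123.6 CPM in AC and PAC, and with EtOH it held 70.4 to 108.6 CPM over all genotypes. The range of the AC and PAC samples with 4-HT overlapped that of EtOH, and the BAC and BPAC range with 4-HT lay above both. The change was 0.59 (adjusted p = 0.0136) in AC, 0.34 (adjusted p = 0.0233) in PAC, 0.67 (adjusted p = 2.74e-05) in BAC and 0.78 (adjusted p = 3.41e-06) in BPAC.

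*Mthfd2*, which in mitochondria oxidises the one-carbon unit that *Shmt2* releases, is at chr6:83305691-83325908 (minus strand). With EtOH it stood at 34.5 and 42.1 CPM in AC, 34.8, 48.8, 44.6 and 50.5 CPM in PAC, 34.6, 46.7, 29.6 and 44.5 CPM in BAC and 30.6, 37.4, 30.2 and 37.1 CPM in BPAC. With 4-HT it stood at 40.6 and 39.2 CPM in AC, 52.3, 51.9, 49.4 and 51.0 CPM in PAC, 73.9, 84.0, 81.3 and 77.5 CPM in BAC and 89.1, 97.1, 79.7 and 83.0 CPM in BPAC. The AC and PAC samples kept within or just above the EtOH range after 4-HT, and every BAC and BPAC sample with 4-HT lay above all of them. The change was 0.06 (adjusted p = 0.864) in AC and 0.20 (adjusted p = 0.226) in PAC, against 1.03 (adjusted p = 2.68e-07) in BAC and 1.36 ± 0.13 (SE; adjusted p = 3.26e-09) in BPAC.

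*Mthfd1l*, which releases formate in mitochondria, is at chr10:3973118-4167081 (plus strand). It held 22.1 to 40.8 CPM with EtOH, 33.1 to 48.0 CPM with 4-HT in AC and PAC, and 76.4 to 96.5 CPM with 4-HT in BAC and BPAC. Its change was 0.78 (adjusted p = 0.0137) in AC, 0.47 (adjusted p = 0.0172) in PAC, 1.33 (adjusted p = 9.54e-08) in BAC and 1.37 (adjusted p = 5.18e-08) in BPAC. With the culture as a replicate block the AC and PAC changes were also called, at 0.78 (adjusted p = 0.00239) and 0.45 (adjusted p = 0.00445). With the duplicates of a donor summed neither was called (adjusted p = 0.0207 and 0.0144).

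*Mthfd1*, the cytosolic enzyme with 3 activities that takes up formate, is at chr12:76255298-76319803 (plus strand). It held 97.0 to 151.7 CPM with EtOH and 120.7 to 158.2 CPM with 4-HT in AC and PAC, ranges that overlapped, and 190.1 to 252.5 CPM with 4-HT in BAC and BPAC. Its change was 0.58 (adjusted p = 0.0199) in AC, 0.42 (adjusted p = 0.0081) in PAC, 0.85 (adjusted p = 2.49e-06) in BAC and 0.91 (adjusted p = 7.19e-07) in BPAC. Exons of *Psph*, *Shmt1*, *Shmt2* and *Mthfd1* overlap those of a gene on the other strand (Cct6a, Smcr8, Ndufa4l2 and Gm47525), and whether the counting used strand is not given in the sources used here, so part of their reads could belong to those genes.

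*Cbs*, which uses serine to make cystathionine, is the one gene of the group that was lower with the *Braf* allele after 4-HT. Its gene is at chr17:31608894-31637238 (minus strand), and the sequence before it is the one with the E-box. With EtOH it stood at 26.6 and 25.4 CPM in AC, 25.4, 29.7, 18.0 and 23.9 CPM in PAC, 20.1, 16.3, 19.8 and 14.4 CPM in BAC and 20.0, 13.2, 28.9 and 17.1 CPM in BPAC. With 4-HT it stood at 44.8 and 31.1 CPM in AC, 41.1, 30.7, 42.0 and 29.5 CPM in PAC, 19.0, 15.0, 17.8 and 12.2 CPM in BAC and 19.6, 12.8, 21.6 and 15.7 CPM in BPAC. Each of the 6 AC and PAC cultures was higher with 4-HT than with EtOH, by 0.05 to 1.22, and each of the 8 BAC and BPAC cultures was lower, by 0.03 to 0.42 with TMM scaling, where library size alone turned the values of both genotypes to 0.02. The change itself was called in no genotype, at 0.55 (adjusted p = 0.217) in AC, 0.56 (adjusted p = 0.038) in PAC, -0.14 (adjusted p = 0.59) in BAC and -0.18 (adjusted p = 0.489) in BPAC. With the replicate block the PAC value was called, at 0.57 (adjusted p = 0.00316), and with the duplicates of a donor summed it was not, at 0.58 (adjusted p = 0.0258). In PAC the change was 0.69 and 1.22 in duplicate 1 and 0.05 and 0.30 in duplicate 2.

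*Gldc*, at chr19:30098447-30175429 (minus strand), was close to the limit of detection. It held 2 to 51 counts per sample, at most 1.21 CPM, and the changes of single cultures ran from -1.54 to 2.06. Averaged by donor they were 0.52 to 1.30 with the *Braf* allele and -0.03 to 0.41 without it, but the ranges overlapped in each duplicate alone. The largest change, 1.31 ± 0.57 (SE; adjusted p = 0.0558) in BAC, did not pass the test. With the duplicates of a donor summed it was called, at 1.35 (adjusted p = 0.00684).

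**Figure D2:**
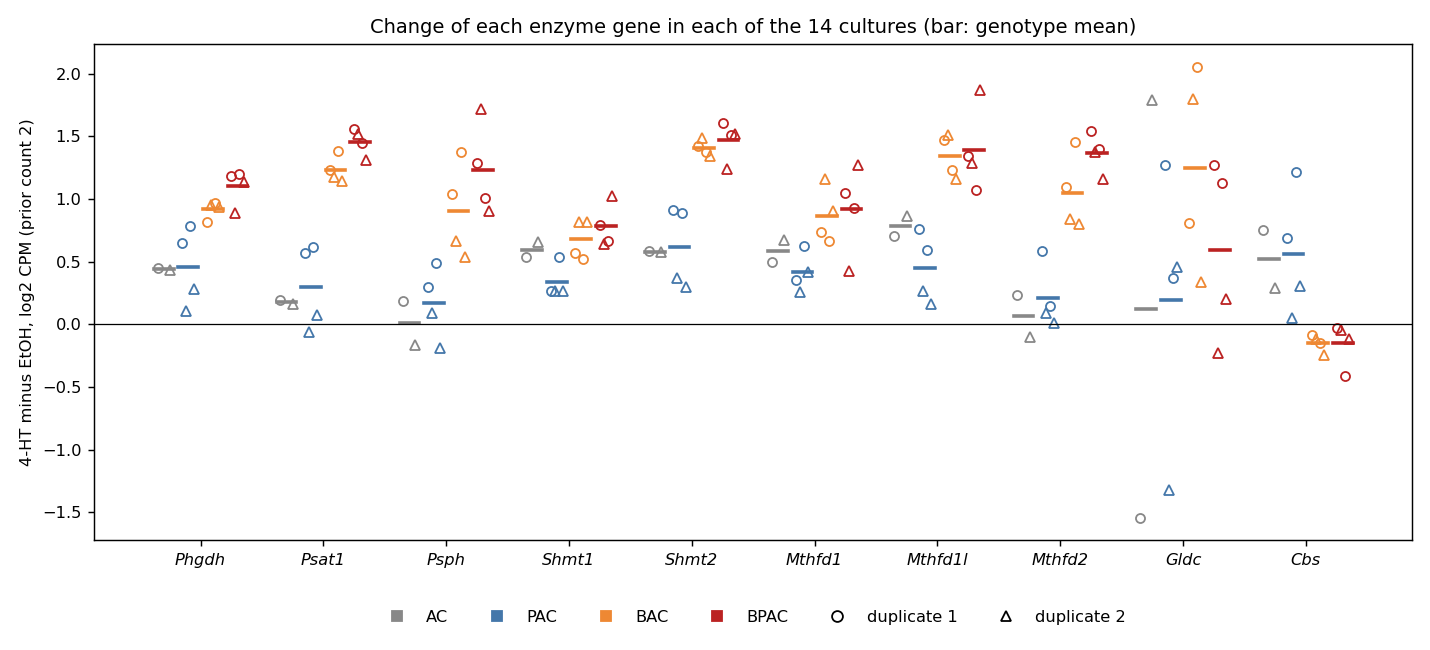
4-HT minus EtOH change of each of the 10 enzyme genes (log2 CPM, prior count 2) in each of the 14 cultures, by genotype, with circles for duplicate 1 and triangles for duplicate 2 and a line at 0. For Shmt2 the BAC and BPAC cultures lie at 1.24 to 1.60 and the AC and PAC cultures at 0.30 to 0.91, and for Cbs every BAC and BPAC culture lies below 0 on this scale, while scaling by library size alone turned both genotypes to 0.02. A bar marks each genotype mean.

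Whether the 4-HT change depended on the *Braf* allele was tested as BAC and BPAC against AC and PAC. *Psat1*, *Mthfd2*, *Psph*, *Shmt2*, *Mthfd1l* and *Phgdh* rose further with the allele. The difference was 1.11 ± 0.11 (SE; adjusted p = 1.38e-06) for *Psat1*, 1.07 ± 0.14 (SE; adjusted p = 3.15e-05) for *Mthfd2*, 0.96 (adjusted p = 0.000161) for *Psph* and 0.84 (adjusted p = 1.62e-05) for *Shmt2*. *Mthfd1l* followed with 0.73 (adjusted p = 0.00462) and *Phgdh* with 0.56 (adjusted p = 0.00388). These are 6 of the 10 genes, where 3.05% of all genes were called higher, and the median difference was 0.64 over the 10 genes and -0.01 over all genes. The differences of *Mthfd1*, 0.38 (95% interval 0.10 to 0.66), *Shmt1*, 0.26 (-0.00 to 0.52), and *Gldc*, 0.46 (-0.91 to 1.84), did not pass the test. For *Cbs* the difference was -0.72 (adjusted p = 0.0415), and -0.70 (adjusted p = 0.00393) with the replicate block, under which 6.51% of all genes were called higher and 7.48% lower. With the duplicates of a donor summed the *Cbs* difference was -0.65 (adjusted p = 0.05) and was not called. Without the PAC cultures of duplicate 1 it was -0.52 (adjusted p = 0.182), and the same 6 genes were called higher. Duplicate 2 alone called 2 of the 6, *Psat1* at 1.20 and *Mthfd2* at 1.07, where 11 of all genes were called higher. The count was 4 without AC duplicate 1 (106 of all genes higher), without AC duplicate 2 (161) and without the PAC culture of Col313 in duplicate 2 (320), against 413 of all genes with every culture.

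The same question was asked with the donor as the unit, the changes of the 2 cultures of a mouse being averaged. For *Psat1* the 4 donors with the *Braf* allele lay at 1.20 to 1.54 and the 3 donors without it at 0.18 to 0.35. For *Shmt2* these ranges were 1.36 to 1.51 and 0.58 to 0.64, and for *Mthfd2* 0.97 to 1.46 and 0.07 to 0.34. For *Cbs* they were -0.27 to -0.04 and 0.37 to 0.76. The donors with and without the allele did not overlap for any of the 10 genes, 9 higher with it and *Cbs* lower, where 18.2% of all genes did not overlap and were higher with the allele and 17.1% lower. For 9 of the genes the two-sided exact permutation p was 0.0286, the smallest that 35 splits of the donors allow, and for *Gldc* it was 0.0571. With duplicate 2 alone, which leaves out the doubted PAC samples, 7 of the 10 did not overlap (6 higher and *Cbs* lower, where 11.8% of all genes were higher and 12.6% lower), *Shmt1*, *Mthfd1* and *Gldc* being the exceptions.

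**Figure D3:**
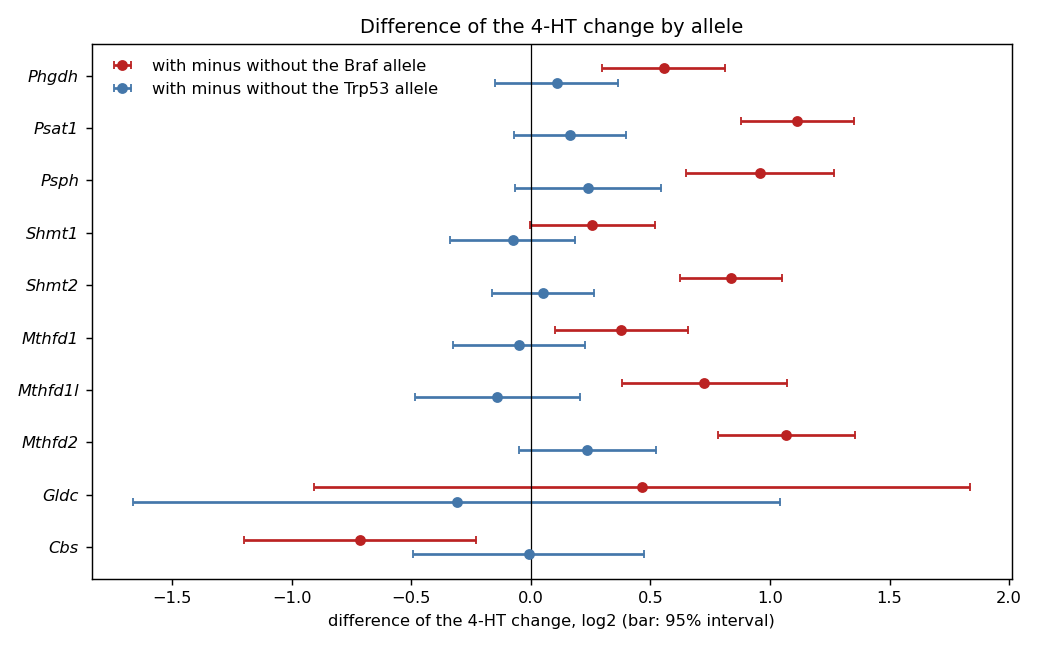
Difference of the 4-HT change with minus without the Braf allele (log2, red) and with minus without the Trp53 allele (blue) for each of the 10 genes, with 95% intervals from the fit over all genes. The Braf intervals lie above 0 for 7 genes, cross it for Shmt1 and Gldc and lie below it for Cbs, while all Trp53 intervals cross 0.

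Levels were compared in the same way. With EtOH none of the 10 genes differed by *Braf* allele in edgeR, limma-voom or DESeq2 (0.0296% of all genes called; 3 of the 10 at an unadjusted p under 0.05 in edgeR). The differences ran from -0.43 for *Cbs* to 0.29 for *Mthfd1l*. With 4-HT 8 were higher with the *Braf* allele, from 0.40 (adjusted p = 0.00109) for *Shmt1* to 1.05 ± 0.08 (SE; adjusted p = 3.86e-09) for *Psat1*, where 15.6% of all genes were higher and 14.6% lower. *Cbs* was lower with the allele, by -1.14 (adjusted p = 6.48e-06), and its difference with EtOH was -0.43 (adjusted p = 0.195).

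The *Trp53* allele was tested as PAC and BPAC against AC and BAC. Its differences of the 4-HT change ran from -0.31 for *Gldc* to 0.24 for *Psph*, and edgeR, limma-voom and DESeq2 called none (0.0148% of all genes called; 0 of the 10 at an unadjusted p under 0.05 in edgeR). The 95% interval was -0.07 to 0.40 for *Psat1*, -0.16 to 0.27 for *Shmt2* and -0.05 to 0.52 for *Mthfd2*. These intervals leave out differences as large as those by *Braf* allele, and do not show that the change is equal with and without mutant p53. For levels by *Trp53* allele, the lowest unadjusted p of the 10 genes in edgeR was 0.0182. It was that of *Mthfd2* with 4-HT, which was higher with the allele by 0.25 and was not called.

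Neighboring enzymes of the pathway differed in the size of their change. With the *Braf* allele the change of *Psat1* was above that of *Phgdh*, the enzyme before it, by 0.34 over donors, and without the allele it was below it (-0.19). *Shmt2* exceeded *Shmt1* by 0.71 with the allele and 0.18 without it, and *Mthfd1l* exceeded *Mthfd1* by 0.48 and 0.09. Each of these 3 differences between donors had an exact permutation p of 0.0286, the smallest that 35 splits allow, adjusted to 0.0381 over the 4 pairs compared. The adjustment does not cover the choice of the pairs, whose genes were chosen with earlier results of these data known. *Mthfd2* minus *Mthfd1* was 0.32 with the allele and -0.31 without it (exact permutation p = 0.0857, adjusted 0.0857), and the exact permutation p was 0.0286 in duplicate 1 alone and 0.143 in duplicate 2 alone. In duplicate 2 alone the exact permutation p was 0.0286 for *Psat1* minus *Phgdh* and for *Shmt2* minus *Shmt1*, and 0.0571 for *Mthfd1l* minus *Mthfd1*. In duplicate 1 alone it was 0.0286 for the first and second of these, and 0.286 for *Mthfd1l* minus *Mthfd1*, whose ranges then overlapped (0.14 to 0.73 with the allele and -0.03 to 0.40 without it).

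**Figure D4:**
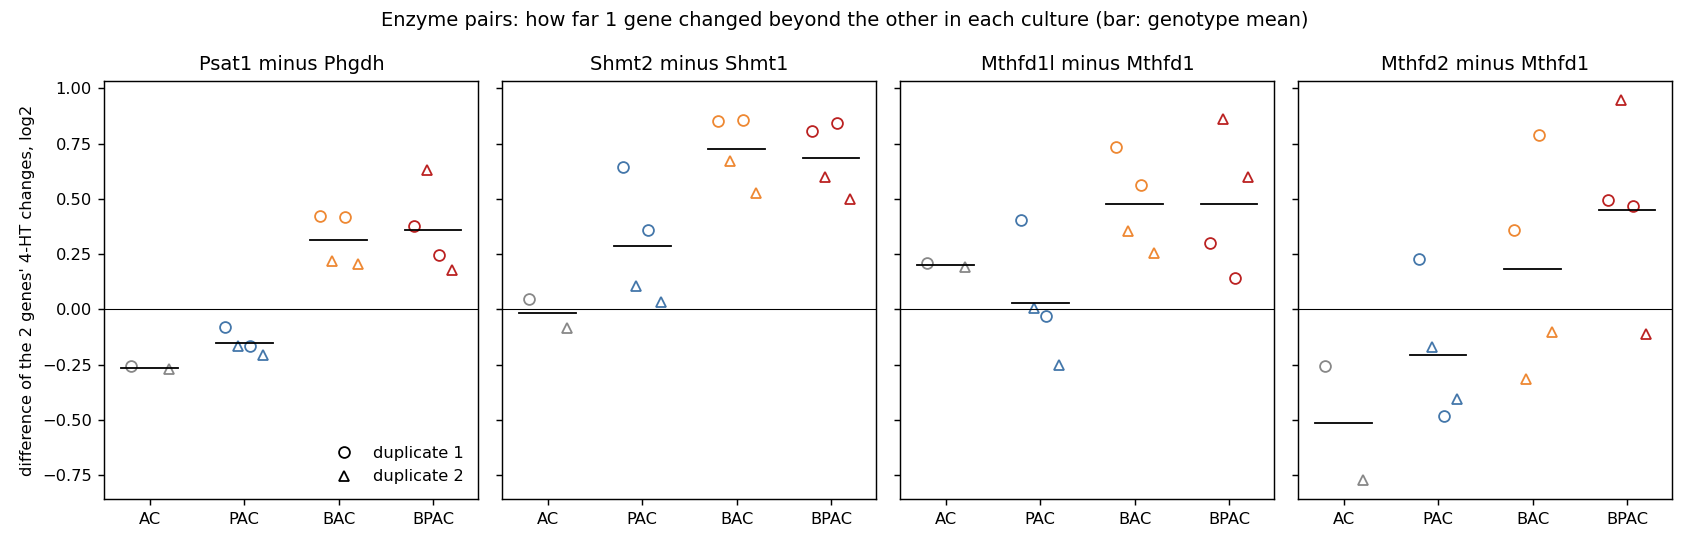
Difference between the 4-HT changes of 2 enzymes (log2) in each of the 14 cultures by genotype, circles for duplicate 1 and triangles for duplicate 2, with a bar at each genotype mean and a line at 0. For Psat1 minus Phgdh every BAC and BPAC culture lies above 0 (0.18 to 0.63) and every AC and PAC culture below it (-0.27 to -0.08), while for Shmt2 minus Shmt1 the cultures overlap, at 0.50 to 0.86 and -0.08 to 0.65.

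Over the 14 cultures the changes of the 8 genes called in BAC and BPAC were correlated with each other, with Pearson r of 0.36 to 0.96 over their 28 pairs, and those of *Cbs* with the other 9 genes had r of -0.65 to -0.26. The cultures of a genotype share alleles and each change shares its libraries between genes, so these values describe the data and carry no test. Among 9011 genes with a mean of at least 10 CPM, the changes most like those of *Phgdh* were those of *Fmnl3*, *Rrp8* and *Gga2* (r = 0.96 each), and for *Psat1* they were *Snrpa1*, *Strap* and *Nudt5* (0.97 each). For *Shmt2* they were *Cct7* and *Rrp8* (0.99) and *Cdca4* (0.98). For *Mthfd2* they were *Pck2* (0.97), which makes phosphoenolpyruvate in mitochondria, *Phf10* (0.96) and *Asns* (0.96), the asparagine synthetase.

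Genes around the pathway were read from lists, and each count is to be read against the shares of all genes called higher (22.0% in BPAC, 20.3% in BAC, 11.2% in PAC, 3.00% in AC) and lower (23.0%, 21.5%, 12.2% and 4.25%), and against 3.05% called higher for the *Braf* difference. Of the 12 other enzymes of folate metabolism measured, edgeR called 5 higher and 1 lower in BPAC, 4 higher and 2 lower in BAC, 2 higher and 1 lower in PAC, and 1 higher in AC. *Tyms*, which makes thymidylate with a one-carbon unit, was called higher in all 4, most in BPAC (0.79) and least in PAC (0.40), with BAC at 0.58 and AC at 0.52. *Mtrr*, which reactivates *Mtr*, rose by 0.61, 0.81 and 0.91 in PAC, BAC and BPAC, and *Mthfs* fell by 0.89 in BAC. These 3 genes were named after their values were seen. *Mtr*, the methionine synthase, rose by 1.17 in BAC and 1.14 in BPAC, and *Ggh*, which trims the glutamate tail of folates, fell by 1.03, 1.69 and 1.53 in PAC, BAC and BPAC. *Aldh1l2*, which in mitochondria turns formyl-tetrahydrofolate into carbon dioxide, rose by 1.01 in BPAC, and its change was higher with the *Braf* allele by 1.42 (adjusted p = 0.00156). Its change was -1.16 (adjusted p = 0.0291) in AC, -0.44 (adjusted p = 0.185) in PAC and 0.23 (adjusted p = 0.452) in BAC. *Fpgs*, which adds the glutamate tail and was named after its values were seen, was higher by 0.62 (adjusted p = 0.00254). With median differences of 0.19 over these 12 enzymes and -0.01 over all genes, 2 of the 12 differed by *Braf* allele.

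Of the 8 carriers of serine, glycine and folate, 5 were called higher and 1 lower in BAC and in BPAC, 1 higher in PAC and none in AC. The *Braf* difference was 0.87 (adjusted p = 0.000194) for *Slc6a9*, a glycine carrier, and for *Slc1a4*, a carrier of neutral amino acids including serine, it was 0.62 (adjusted p = 7.62e-06). *Slc25a32*, the mitochondrial folate carrier, was named after its values were seen, at 0.42 (adjusted p = 0.0055). *Slc19a1*, the reduced folate carrier, rose by 1.07 in BPAC, 1.07 in BAC and 0.69 in PAC. The gene called lower was *Slc46a1*, the proton-coupled folate carrier, which fell by 0.61 in BAC and 0.60 in BPAC and was named after its values were seen. Its BPAC call was lost without either BPAC culture of duplicate 2 (-0.52, adjusted p = 0.0207, and -0.55, adjusted p = 0.0165).

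*Gldc* has partners in glycine cleavage and *Cbs* in transsulfuration. Of the first, *Gcsh* rose by 0.27 in BAC and 0.30 in BPAC, *Dld* fell by 0.40 in PAC, and *Amt* passed the test in no genotype. *Cth*, which follows *Cbs* and releases cysteine, was called lower in every genotype, falling by 1.06 (AC), 0.94 (PAC), 1.03 (BAC) and 0.92 (BPAC), and its *Braf* difference was 0.02 (adjusted p = 0.928). Of the 5 genes of this methionine and transsulfuration list measured, 1 was called lower in each genotype and 1 higher in BAC (*Gnmt*, glycine N-methyltransferase, 1.05, named after its values were seen), and none of them nor of the 3 glycine cleavage partners differed by *Braf* allele.

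Purine synthesis and the synthesis of thymidylate take up one-carbon units. Of 12 purine synthesis genes 3, 7, 10 and 11 were called higher in AC, PAC, BAC and BPAC, and of 9 pyrimidine synthesis genes 5, 8, 8 and 8, with none lower. *Gart*, which uses formyl-tetrahydrofolate, rose by 1.35 in BPAC, 1.31 in BAC, 0.65 in PAC and 0.80 in AC, and was higher with the *Braf* allele by 0.60 (adjusted p = 0.0069). *Impdh1* and *Prps1* of purine synthesis, *Ctps* and *Rrm2* of pyrimidine and deoxynucleotide synthesis were also higher with the allele, by 0.67, 0.55, 0.58 and 0.72, while *Cad* rose by 0.96 to 1.51 over the genotypes and its *Braf* difference was 0.51 (adjusted p = 0.0788). *Gmps* and *Rrm1*, named after their values were seen, followed with 0.44 and 0.47, so that 4 of the 12 purine genes and 3 of the 9 pyrimidine genes differed by *Braf* allele, with medians of 0.31 and 0.41.

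ATF4 is a transcription factor that responds to amino acid shortage, and genes of serine synthesis are among its known targets. Of its 9 listed genes outside the enzymes none was called in AC, 1 higher (*Ddit4*) and 1 lower (*Trib3*) in PAC, and 6 higher in BAC and in BPAC. The change of 5 of the 9 was higher with the *Braf* allele, with a median of 0.66 over the list. They were *Trib3* (2.14), *Slc7a11* (1.61), *Chac1* (1.26), *Asns* (1.10) and *Atf4* itself (0.66), of which *Trib3*, *Chac1* and *Atf4* were named after their values were seen. Without the *Braf* allele the values of *Slc7a11* and *Chac1* were below 0 and did not pass the test, at -0.63 and -0.81 in AC and -0.34 and -0.46 in PAC, and *Trib3* was at -0.96 in AC, beside its call in PAC. *Ddit4* rose by 1.29 in BPAC, 1.32 in BAC and 0.85 in PAC, and its *Braf* difference was 0.52 (adjusted p = 0.13). The letters of the ATF4 element were in none of the member promoters searched.

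Of 13 genes of the *Myc* and proliferation list 7, 11, 12 and 13 were called higher in AC, PAC, BAC and BPAC. *Myc* rose by 1.25, 1.32, 1.84 and 1.58, with a *Braf* difference of 0.42 (adjusted p = 0.167), and those of *Mcm2* and *Mcm4* were 0.40 (adjusted p = 0.132) and 0.40 (adjusted p = 0.0695). Only *Ccnb1* and *Aurkb* of the 13 differed by *Braf* allele. The summed level of the 13 genes was 1067 to 1466 CPM with EtOH, 1824 to 2289 CPM with 4-HT in AC and PAC, and 2559 to 3188 CPM with 4-HT in BAC and BPAC, in the same order as the enzymes, and its part in the result was not tested. The summed level of the 10 colon epithelium markers went from 29560 to 43680 CPM with EtOH to 18840 to 26330 CPM with 4-HT. Of these markers *Krt20* and *Car1*, of differentiated cells, fell and *Lgr5*, of stem cells, rose in all 4 genotypes (these 3 were named after their values were seen), and their part in the result was not tested either. With duplicate 2 alone *Asns* and *Slc7a11* were the only genes named from these lists whose *Braf* difference was called, and without the PAC cultures of duplicate 1 those of *Gart* (adjusted p = 0.0122) and *Slc25a32* (adjusted p = 0.0218) were not. Without the PAC cultures of duplicate 1 none of the genes of the folate, transport, glycine cleavage, purine, pyrimidine, ATF4 and proliferation lists was called in PAC. Over all genes only 22 were then called higher and 26 lower, and the methionine and transsulfuration list is not part of this statement.

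**Figure D5:**
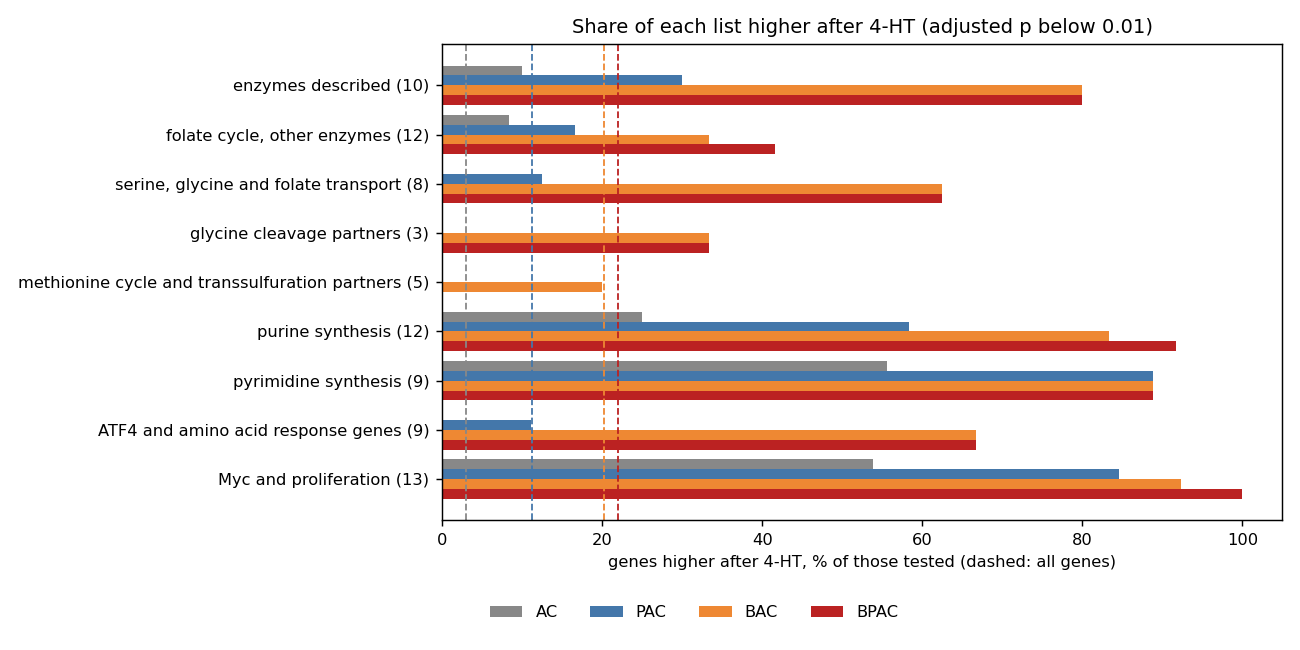
Share of the measured genes of each list (number in brackets) called higher after 4-HT, in percent, for AC (grey), PAC (blue), BAC (orange) and BPAC (red), with dashed lines at the share over all genes. Of the 10 enzyme genes 8 were higher in BAC and BPAC, 3 in PAC and 1 in AC, beside 20.3%, 22.0%, 11.2% and 3.00% of all genes. AC has 2 samples per treatment and the other genotypes 4.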

How the data were processed

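The authors trimmed the reads (Trimmomatic 0.39 in the submitters' processing notes), aligned them with STAR (2.5.2b) to mm10 and deposited raw counts per Ensembl gene for 28 samples; the counting program, annotation and strand setting are not given in the sources used here. All 13519 deposited genes were kept, and symbols, exon lengths and positions came from GENCODE M21. Gene changes were tested with edgeR (4.0.16) quasi-likelihood fits of all 28 samples, with TMM scaling, 1 mean per genotype and treatment, and Benjamini-Hochberg adjustment over all genes, called below 0.01. Levels are CPM, and values per culture are log2 CPM with a prior count of 2. Donor values were compared by two-sided exact permutation. The EtOH and 4-HT samples of a culture come from the same animal and culture, and their deviations from the group means correlated (r = 0.245 to 0.532), so a fit with the culture as a replicate block is also given. Alternatives were limma-voom (3.58.1), DESeq2 (1.42.0), other scalings, a filter of 1 CPM in 14 samples, thinning, single duplicates, summed donors and each culture left out. Total counts were 20577276 to 40068718 per sample. The enzyme genes and all lists were chosen with earlier results of these data known. Named besides the 10 genes are, per list, up to 3 genes called in BPAC with the largest change, every gene of a list of 3 or fewer, and genes said to be named after their values were seen. Scripts were tested on simulated data.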

Additional observations from a re-analysis of the deposited data

Results flagged for a closer look

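In 90 groups of 4 samples or cultures, 1 value stood far from the other 3 in 2 cases, where chance alone gives about 4.5. The change of *Shmt1* in the PAC culture of Col313 in duplicate 1 was 0.53, with the other PAC cultures at 0.26 to 0.27, and its 4-HT sample is one of the doubted pair. *Gldc* stood at 0.601 CPM in the EtOH sample of the same culture, with the other PAC samples at 0.305 to 0.333 CPM.

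The 4-HT change differed by *Braf* allele, by the test of the difference itself over all genes, for 25 of the genes named. Over all 13519 genes 413 were called higher and 480 lower by this test. Of the enzymes these were *Phgdh* (0.56), *Psat1* (1.11), *Psph* (0.96), *Shmt2* (0.84), *Mthfd1l* (0.73) and *Mthfd2* (1.07). Of folate metabolism and transport they were *Aldh1l2* (1.42), *Fpgs* (0.62), *Slc6a9* (0.87), *Slc1a4* (0.62) and *Slc25a32* (0.42). Of nucleotide synthesis they were *Gart* (0.60), *Impdh1* (0.67), *Prps1* (0.55), *Gmps* (0.44), *Ctps* (0.58), *Rrm1* (0.47) and *Rrm2* (0.72). Of the ATF4 list they were *Trib3* (2.14), *Slc7a11* (1.61), *Chac1* (1.26), *Asns* (1.10) and *Atf4* (0.66), and of the proliferation list *Ccnb1* (0.66) and *Aurkb* (0.55). All 25 were higher with the allele. With duplicate 2 alone 4 of them were called, *Psat1*, *Mthfd2*, *Asns* and *Slc7a11*, and the adjusted p of the others then ran from 0.0124 (*Shmt2*) to 0.218 (*Gart*). Fewer of the 25 were also called with duplicate 1 alone and without either AC culture. In these fits and with duplicate 2 alone AC holds 1 sample per treatment, and fewer of all genes were called as well. *Gmps*, *Rrm1*, *Ccnb1* and *Aurkb* were named after their values were seen, as were *Fpgs*, *Slc25a32*, *Trib3*, *Chac1* and *Atf4*. These genes were named because they passed this test, so the count of 25 holds them by choice.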

How the results depend on the processing

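Over 28 alternatives, 3547 values of single genes were recomputed, of which 3321 kept their direction and side of the threshold, 135 lost the call, 65 gained it and 26 changed sign; the cause was not tested. Of the 10 enzyme genes BAC and BPAC kept 8 calls with each of the 14 cultures left out. In AC the count of 1 became 4 with DESeq2, 5 with library size alone, 3 with the replicate block, 0 with duplicate 2 alone, 5 with the duplicate as a covariate, 2 with thinning, 4 at an adjusted p of 0.05, and 0 to 2 with a culture left out (0 without AC replicate Col288_1 or Col288_2, 2 without BPAC replicate Col287_2 or Col312_2). Over all genes the 406 called higher in AC became 730, 1511, 1007, 0, 998, 379, 1106 and 0 to 587 in the same order. In PAC the count of 3 became 8 with library size alone, 6 with the replicate block, 7 with duplicate 1 alone, 0 with duplicate 2 alone, 5 with the duplicate as a covariate, 0 without the PAC cultures of duplicate 1, 7 at an adjusted p of 0.05, and 1 to 4 with a culture left out (1 without PAC replicate Col290_1 or Col313_1). Over all genes the 1511 called higher in PAC became 3388, 2234, 1830, 2, 2138, 22, 2378 and 691 to 1720 in the same order. The *Braf* difference of 6 genes became 2 with duplicate 2 alone and 4 to 6 with a culture left out. The replicate block changed no count of called enzyme genes by over 1.5 times other than those in AC and PAC, and added *Cbs* to the *Braf* difference. Signs turned for *Psph* in AC (-0.16 with duplicate 2 alone, -0.16 to 0.1866 with a culture left out) and PAC (-0.059 with duplicate 2 alone and without the PAC cultures of duplicate 1), and for *Mthfd2* in AC (-0.10 with duplicate 2 alone, -0.10 to 0.2365 with a culture left out). They turned for *Gldc* in AC (-0.11 with limma-voom, -2.29 with duplicate 1 alone, -2.27 to 2.1375 with a culture left out), PAC (-0.18 with duplicate 2 alone and without the PAC cultures of duplicate 1) and its *Braf* difference (-0.41 with duplicate 2 alone, -0.25 to 1.9471 with a culture left out). They turned for *Cbs* in BAC and BPAC (0.0235 and 0.0245) and *Dld* in BPAC (0.0887) with library size alone. The *Braf* difference turned for *Amt* (-0.0369) and *Dld* (-0.0324) with duplicate 2 alone, for *Dld* (-0.016) without the PAC cultures of duplicate 1, and for *Cth* under 6 alternatives (-0.0103 with library size alone, -0.0541 with duplicate 2 alone, -0.0609 without the PAC cultures of duplicate 1, -0.0377 to 0.0717 with a culture left out). None of these values passed the test. Of 120 counts over the lists 17 moved by over 1.5 times, among them proliferation in AC (11 of 13 with the replicate block) and purine synthesis in AC and PAC (6 and 11 of 12 with the replicate block). Changes of genes under 10 CPM, *Gldc* above all, are limited by depth, and with 1 donor the spread between AC animals is unknown.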
